A study of Mus musculus with 12 samples.

Results

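The genes described here are 7 that encode NADPH oxidases or their subunits, followed in mouse vessels through angiotensin II infusion. They are Nox1, Nox4, Cybb, Cyba, Ncf1, Ncf4 and Rac2, and each was taken as the transcript cluster (the array's unit for 1 transcribed locus) that carried that gene's symbol alone. Each of the 7 had 1 such cluster, among 30702 genes named in the table. All but Nox1 passed the filter on dim signals, so 6 of the 7 stand among the 22066 genes tested.

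NADPH oxidases are membrane enzymes that pass electrons from NADPH across the membrane to oxygen and so make superoxide or hydrogen peroxide. Each has 1 catalytic protein, and most of these work in a pair with the small membrane subunit p22phox, which Cyba encodes. The phagocyte enzyme is built around the catalytic protein gp91phox (Cybb, also called Nox2) and is switched on when cytosolic subunits, among them p47phox (Ncf1) and p40phox (Ncf4), and the GTPase Rac2 join it. Nox4 is a catalytic protein of smooth muscle, endothelium and other tissue cells that needs no cytosolic subunit and mainly releases hydrogen peroxide. Nox1 is another catalytic protein, best known from colon epithelium and also described in smooth muscle.

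The mice were male C57BL/6 animals aged 8 to 10 weeks, either left without angiotensin II (day 0) or infused with it for 1, 3 or 7 days (1500 ng per kg per min, osmotic pump). Each of the 4 groups holds 3 arrays of total RNA described as biological replicates, 12 arrays in all. The labels do not say which vessel was taken, how many animals went into an array, or whether day 0 mice carried a pump with vehicle, so pump surgery and the hormone cannot be told apart.

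The array measures transcripts, and the stretches of genome just upstream of the genes place the members that moved in opposite directions side by side. The RefSeq promoter table (build GRCm38.p6) holds Nox1, Nox4, Cybb, Cyba and Ncf1 of the 7, and the 250 bases before the start are shown for Nox4, which fell, and for Cybb and Ncf1, which rose. Nox4 lies at chr7:87246399-87246648 on the plus strand, Cybb at chrX:9469325-9469574 on the minus strand and Ncf1 at chr5:134229626-134229875 on the minus strand. Capitals mark matches on either strand to a pair of GAAA runs with any 2 bases between them, the core of the element bound by interferon regulatory factors, and to GGGCGG, the GC box.
Nox4: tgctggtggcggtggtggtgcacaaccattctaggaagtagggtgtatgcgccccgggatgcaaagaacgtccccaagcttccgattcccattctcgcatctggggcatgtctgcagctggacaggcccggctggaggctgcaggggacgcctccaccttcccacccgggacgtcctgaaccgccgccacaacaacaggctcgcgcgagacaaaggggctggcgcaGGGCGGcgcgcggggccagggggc
Cybb: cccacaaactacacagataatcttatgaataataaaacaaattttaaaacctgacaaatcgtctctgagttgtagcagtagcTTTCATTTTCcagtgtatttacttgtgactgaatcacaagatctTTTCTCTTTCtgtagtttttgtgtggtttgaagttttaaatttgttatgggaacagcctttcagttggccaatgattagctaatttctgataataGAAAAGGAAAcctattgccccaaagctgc
Ncf1: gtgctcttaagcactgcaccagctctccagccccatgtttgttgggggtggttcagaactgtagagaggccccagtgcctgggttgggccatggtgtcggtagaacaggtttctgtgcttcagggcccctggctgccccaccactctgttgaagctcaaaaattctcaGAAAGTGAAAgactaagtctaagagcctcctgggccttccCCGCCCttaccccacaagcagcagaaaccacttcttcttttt
The Nox4 stretch was 67.2% G and C and held 1 GC box, while the Cybb stretch was 34.0% G and C, against a median of 52.4% over 32851 promoters. Cybb held 3 matches to the GAAA pair, 29 to 168 bases before the start, and Ncf1 held 1, 82 bases before it, a sequence found in 2.98% of all promoters over the same length. The GC box was in 32.7% of promoters, and Ncf1 held 1. The stretch of Cyba, called upward at day 3, held no GAAA pair and 2 GC boxes, so these matches do not divide the genes by direction. GAGGAA, a longer form of the GGAA core bound by the myeloid factor PU.1, was in none of the 3 stretches (23.3% of promoters). The core GGAA alone was not counted, and it can be read on either strand in each of the 3 stretches. TGANTCA, which takes in the AP-1 element TGA(C or G)TCA, was in Cybb only (6.75%). There it read TGAATCA, which is not that element. The CArG box of smooth muscle genes was in none of the 3 (1.47%). These are matches of letters and say nothing of binding.

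Signal over background differed between the groups and touches every comparison with day 0. The distance between the medians of positive and negative control features was 2.59 ± 0.045 log2 units (SD, n = 3) before infusion. It was 2.25 ± 0.29, 1.98 ± 0.14 and 1.76 ± 0.49 after 1, 3 and 7 days. All 9 infused arrays had a shorter distance than any day 0 array, and day 7 replicate 1 had the shortest (1.20). Exact permutation of the arrays (two-sided) returned p = 0.1 for each infused group, which is the lowest value possible with groups of 3. Genes between 5 and 6 log2 units at day 0 had a median change of 0.25 at day 7, and those between 12 and 14 had -0.59. The dimmest genes of the first band had to rise to pass the filter. Against the negative control features, Nox4, Cybb, Cyba and Ncf1 lay above their median on 12 of 12 arrays, Rac2 on 3, and Ncf4 and Nox1 on 0. Only Nox4 exceeded their 95th percentile, on 10 of 12 arrays. The phagocyte genes were thus read close to background. Levels are log2 signals as deposited. Probes differ in brightness, so genes are not ranked by level, and where Cybb is subtracted from Nox4 below only the change is read.

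Nox4, the catalytic protein of the vessel wall, fell furthest of the 7. Its log2 signal was 12.59, 13.59 and 12.99 on the day 0 arrays, 10.83, 10.78 and 11.29 at day 1, 10.26, 10.53 and 10.61 at day 3, and 9.51, 9.07 and 11.27 at day 7. Every infused array lay below every day 0 array, and the day 7 arrays were the most scattered, with replicate 3 as high as the day 1 arrays. In RNA of whole tissue, fewer cells of a type and less RNA per cell cannot be told apart. The difference from day 0 was -2.09 ± 0.50 at day 1 (± SE of the limma estimate here and below, n = 3 arrays per group), which missed the threshold with adjusted p = 0.0529 in limma. Nox4 fell by 2.59 ± 0.50 log2 units at day 3 (6.03-fold, limma adjusted p = 0.0135) and by 3.11 ± 0.50 at day 7 (8.62-fold, adjusted p = 0.0037). Among the 484 genes between 12 and 14 log2 units at day 0, the quartiles of the day 7 change were -1.32 and 0.16, and Nox4 lay below the lower one. Leaving out day 0 replicate 2, the highest array, gave -2.32 at day 3 with limma adjusted p = 0.0516. At day 1 the call was made without day 7 replicate 2 (adjusted p = 0.0387) or replicate 3 (adjusted p = 0.00977), both of which enter that test only through the shared spread.

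**Figure D1:**
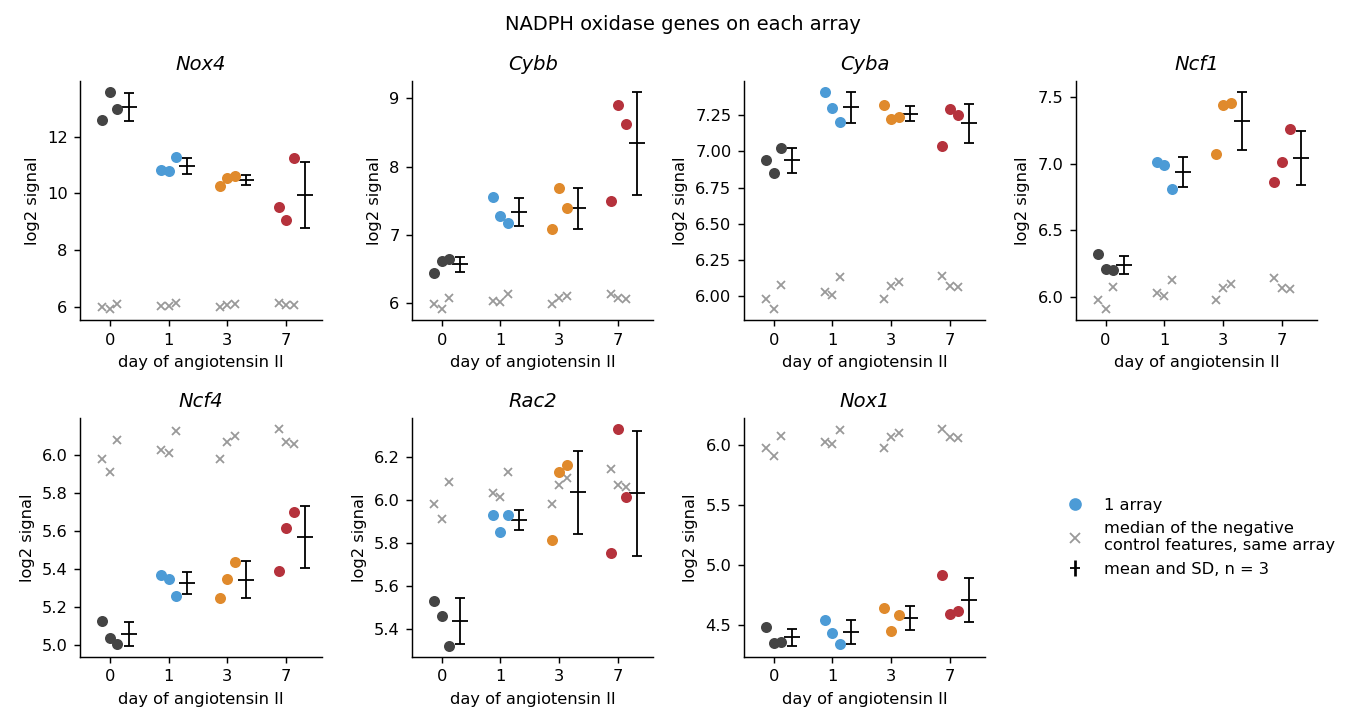
Log2 signal of each of the 7 genes (vertical axis, own scale in each panel) by day of angiotensin II (horizontal axis): points are single arrays, black bars the mean and SD of 3 arrays, and grey crosses the median of the negative control features on the same array. Nox4 drops from between 12.59 and 13.59 at day 0 to between 9.07 and 11.27 at day 7, Cybb climbs from between 6.44 and 6.64 to between 7.49 and 8.91, and Ncf4 and Nox1 stay under the negative control median on all 12 arrays.

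Cybb, the catalytic protein of the phagocyte oxidase, rose at day 7. Its log2 signal was 6.44, 6.62 and 6.64 at day 0, 7.56, 7.27 and 7.17 at day 1, 7.08, 7.69 and 7.39 at day 3, and 7.49, 8.91 and 8.63 at day 7. All 9 infused arrays were above the day 0 arrays, days 1 and 3 overlapped, and day 7 replicate 1, the array with the lowest signal over background, stayed among the day 1 and 3 values. The difference from day 0 was 0.77 ± 0.32 at day 1 (limma adjusted p = 0.264) and 0.82 ± 0.32 at day 3 (adjusted p = 0.13), and neither passed. At day 7 Cybb rose by 1.78 ± 0.32 (3.43-fold, limma adjusted p = 0.00583). Without day 7 replicate 1 the day 7 difference was 2.21 (limma adjusted p = 0.000505). Leaving that array out also narrowed the shared spread, so that Cybb passed at day 1 (adjusted p = 0.0391) and day 3 (adjusted p = 0.0163).

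Cyba, which encodes the p22phox partner shared by Nox4, Nox1 and the phagocyte enzyme, moved little. The day 0 arrays read 6.94, 6.85 and 7.02, those of day 1 7.41, 7.30 and 7.20, those of day 3 7.32, 7.22 and 7.24, and those of day 7 7.04, 7.29 and 7.25. The infused arrays were all above day 0, and the 3 infused groups overlapped. Cyba rose by 0.32 ± 0.09 at day 3 (limma adjusted p = 0.0451), while 0.37 ± 0.09 at day 1 (adjusted p = 0.0562) and 0.26 ± 0.09 at day 7 (adjusted p = 0.057) did not pass. The 95% interval of the day 7 difference ran from 0.06 to 0.46. The day 3 call was lost without any of the 3 day 0 arrays, any of the 3 day 3 arrays, day 1 replicate 2 or day 7 replicate 3 (limma adjusted p = 0.0526 to 0.145). With arrays centred on their medians the difference was 0.14 at day 3 (adjusted p = 0.539) and -0.02 at day 7 (adjusted p = 0.936), so no direction is given for Cyba at day 7. Without day 7 replicate 1 Cyba passed at day 1 (limma adjusted p = 0.0322) and day 7 (0.0309), and without day 1 replicate 3 at day 1 (0.0478).

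Ncf1, the p47phox organiser that carries the cytosolic subunits to the membrane, was the one member called on each of the 3 days. Its log2 signal was 6.32, 6.21 and 6.20 at day 0, 7.01, 6.99 and 6.81 at day 1, 7.07, 7.44 and 7.45 at day 3, and 6.86, 7.01 and 7.26 at day 7. The day 0 arrays were the 3 lowest, days 1 and 3 did not overlap, and day 7 overlapped both. Ncf1 rose by 0.69 ± 0.13 at day 1 (limma adjusted p = 0.0251), by 1.08 ± 0.13 at day 3 (2.11-fold, adjusted p = 0.00301) and by 0.80 ± 0.13 at day 7 (adjusted p = 0.00402). The day 1 call was lost without any 1 of the 3 day 0 arrays or without day 1 replicate 1 or 2 (limma adjusted p = 0.0572 to 0.107), and with centred arrays (0.66, adjusted p = 0.0776). The day 3 and day 7 calls held with centred arrays, at 0.89 (adjusted p = 0.0119) and 0.53 (adjusted p = 0.0381).

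Ncf4, the p40phox subunit that binds phosphoinositides of the phagosome, lay under the negative control median on every array. It read 5.13, 5.04 and 5.01 at day 0, 5.37, 5.35 and 5.26 at day 1, 5.25, 5.35 and 5.44 at day 3, and 5.39, 5.62 and 5.70 at day 7. The day 0 arrays were lowest and all under the filter level of 5.25, so that Ncf4 entered the test only through infused arrays, and the day 7 arrays were above all day 1 arrays but not all day 3 arrays. The difference was 0.27 ± 0.09 at day 1 (limma adjusted p = 0.16) and 0.29 ± 0.09 at day 3 (adjusted p = 0.0704), and Ncf4 rose by 0.51 ± 0.09 at day 7 (adjusted p = 0.00554, and 0.00728 with no filter on dim genes). That call ended with centred arrays (0.24, adjusted p = 0.223) and with quantile normalization (0.24, adjusted p = 0.212). Without day 7 replicate 1, limma gave Ncf4 adjusted p = 0.0285 at day 3.

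Rac2, the GTPase of blood cells that completes the active phagocyte enzyme, read 5.53, 5.46 and 5.32 at day 0, 5.93, 5.85 and 5.93 at day 1, 5.81, 6.13 and 6.16 at day 3, and 5.75, 6.33 and 6.01 at day 7. Infused arrays were all above day 0 and overlapped one another, and replicate 1 was the lowest of days 3 and 7. The difference of 0.47 ± 0.15 at day 1 did not pass (limma adjusted p = 0.124), and Rac2 rose by 0.60 ± 0.15 at day 3 (adjusted p = 0.0308) and by 0.60 ± 0.15 at day 7 (adjusted p = 0.0198). With centred arrays neither call held, at 0.42 (adjusted p = 0.163) and 0.32 (adjusted p = 0.182). The day 3 call was also lost without any of the 3 day 0 arrays or without day 3 replicate 2 or 3 (limma adjusted p = 0.0625 to 0.118), and the day 7 call without day 0 replicate 2 or 3 (0.0512 and 0.0654).

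Nox1 was not measurable above background. It lay between 4.34 and 4.92 on the 12 arrays, under the negative control median on each, and did not pass the filter. Fitted without the filter, its difference from day 0 was 0.31 ± 0.10 at day 7 (95% interval 0.08 to 0.55, limma adjusted p = 0.0614).

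Of the 6 members tested, 1 rose and 0 fell at day 1, where 3.62% of all genes were called in limma, 1.99% upward and 1.63% downward (6 of the 6 had an unadjusted p under 0.05, as had 16.4% of all genes). At day 3, 3 rose and 1 fell, against 4.61% and 7.14% of all genes (11.8% together). At day 7, 4 rose (with Ncf4, which the filter passed only for its infused arrays) and 1 fell, against 12.1% and 13.2% (25.2% together). On each day the 3 infused arrays of Nox4 lay below all day 0 arrays and those of the other 5 above. Over all genes this held in the upward direction for 11.8%, 23.3% and 26.6% at days 1, 3 and 7, and in the downward direction for 11.5%, 21.4% and 20.5%. The median change of the 6 was 0.42, 0.46 and 0.56 log2 units, beside 0.01, 0.08 and 0.09 over all genes. In limma's F test of any change over the 4 times, which 14.6% of genes passed, Nox4 (adjusted p = 0.0139), Cybb (0.0271), Ncf1 (0.00606), Ncf4 (0.0258) and Rac2 (0.0491) passed and Cyba (0.0578) did not. The positions, medians and F test above also include Ncf4, which entered the test only through infused arrays. The 3 comparisons share their day 0 arrays. Of all calls, 54.9%, 39.3% and 47.9% were upward at days 1, 3 and 7 as deposited, 57.3%, 29.2% and 24.1% with quantile normalization, and 66.3%, 23.1% and 20.6% with centred arrays.

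**Figure D2:**
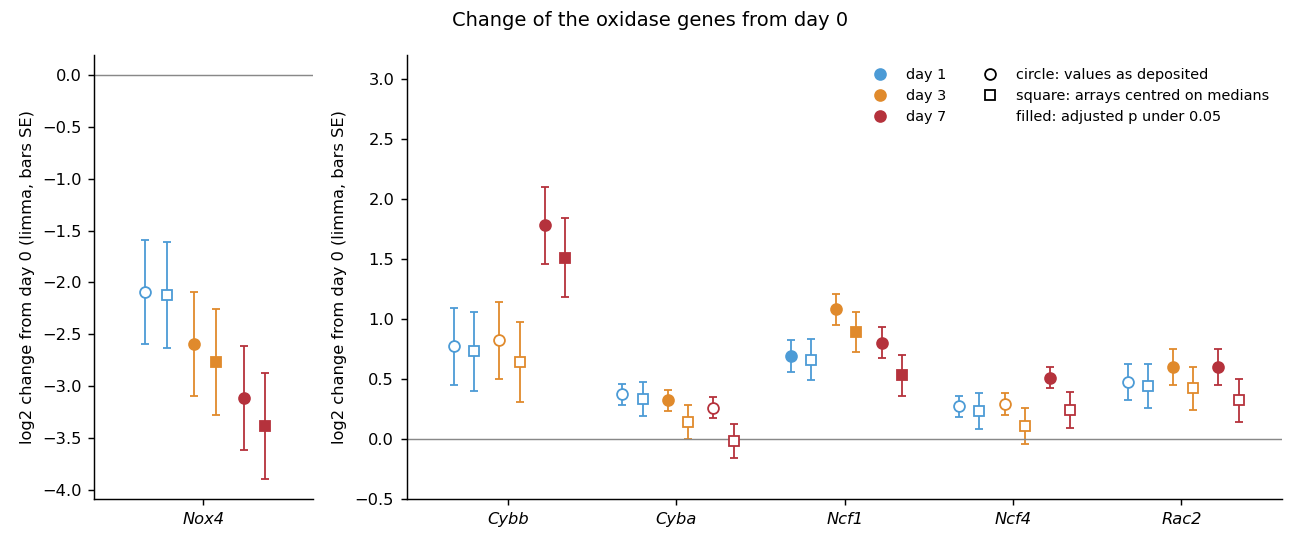
Change of the 6 tested genes from day 0 in log2 units (vertical axis, limma estimate with SE, n = 3 arrays per group), with Nox4 in a panel of its own scale: circles are values as deposited, squares arrays centred on their medians, and filled symbols passed adjusted p under 0.05. Nox4 goes down to -3.11 at day 7 as deposited and to -3.38 with centred arrays, Cybb and Ncf1 stay called at day 7 with centred arrays, and Cyba, Ncf4 and Rac2 do not.

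Between days of infusion no member passed. In limma 0 of 6 were called for day 3 against day 1 (1 of 6 at an unadjusted p under 0.05, beside 8.05% of all genes, and 0% of all genes called), 0 for day 7 against day 3 (2 at an unadjusted p under 0.05, beside 12.9% of all genes, and 0.267% of genes called, 0.113% upward and 0.154% downward) and 0 for day 7 against day 1 (2 at an unadjusted p under 0.05, beside 30.9% of all genes, and 4.79% of genes called, 1.88% upward and 2.91% downward). Of the 6, Ncf1 was higher and Nox4 lower at day 3 than on any day 1 array, as 7.04% and 6.78% of all genes were. None of the 6 was apart between days 7 and 3 (7.04% of genes higher, 7.97% lower). Ncf4 was higher on the day 7 arrays than on the day 1 arrays (14.1% of genes higher, 11.3% lower). Nox4 at day 7 stood -0.52 ± 0.50 from day 3 (95% interval -1.63 to 0.59) and -1.02 ± 0.50 from day 1 (-2.13 to 0.09). Without day 7 replicate 3 the latter was -1.68 (limma adjusted p = 0.0145). Cybb at day 7 stood 0.96 ± 0.32 above day 3 (limma adjusted p = 0.259) and 1.01 ± 0.32 above day 1 (adjusted p = 0.0797). Without day 7 replicate 1, Cybb passed both, at 1.38 (limma adjusted p = 0.0106) and 1.44 (adjusted p = 0.00686). Ncf1 stood -0.27 ± 0.13 from day 3 at day 7 (limma adjusted p = 0.423) and 0.38 ± 0.13 from day 1 at day 3 (adjusted p = 0.604). The difference of Rac2 between days 7 and 3 had a 95% interval from -0.33 to 0.33.

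The called changes of Nox4 and Cybb at day 7 had opposite directions, and their distance is given per array. Subtracting Cybb from Nox4 on each array gave 6.16, 6.97 and 6.35 log2 units at day 0, 3.27, 3.51 and 4.12 at day 1, 3.17, 2.84 and 3.22 at day 3, and 2.02, 0.16 and 2.64 at day 7. All infused arrays were below day 0, and each later day lay wholly below the one before it, day 3 only just below day 1 (highest 3.22 against lowest 3.27). Day 7 replicate 2 had the lowest value. The mean went from 6.49 ± 0.43 at day 0 to 3.64 ± 0.44, 3.08 ± 0.21 and 1.60 ± 1.3 (SD, n = 3 each). Only its change has meaning, as the probes of the 2 genes differ in brightness, and no test is attached to it. The change also holds any array-wide shift between strong and weak signals. Signal over background was 2.59, 2.25, 1.98 and 1.76 at days 0, 1, 3 and 7. At day 7 genes between 12 and 14 log2 units at day 0 had a median change of -0.59, and those between 6 and 7 had 0.05. The share of this shift in the distance was not tested.

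Markers of smooth muscle, macrophages, fibroblasts and skeletal muscle moved beside the oxidase genes, and their part in the result was not tested. Of 8 smooth muscle markers, all above the negative control median on the day 0 arrays, 1 fell at day 1, 3 at day 3 and 7 at day 7. Over all genes, 1.63%, 7.14% and 13.2% fell on the 3 days, and 1.99%, 4.61% and 12.1% rose. Among genes between 12 and 14 log2 units at day 0, 36.6% fell at day 7. The mean of the 8 lay between 14.32 and 14.47 at day 0, 12.33 and 14.01 at day 1, 11.68 and 12.88 at day 3, and 9.04 and 11.85 at day 7. Acta2, smooth muscle actin, stood at the top of the scale on the 3 day 0 arrays, so its difference from day 0 is a lower bound. The smooth muscle myosin Myh11 fell by 6.40 ± 1.07 and calponin Cnn1 by 5.82 ± 0.82 at day 7 (limma adjusted p = 0.00451 and 0.00234). At day 7 the 3 arrays had the same order in Nox4 and in the marker mean, with replicate 3 highest and replicate 2 lowest, while at day 3 the order was opposite. Day 1 replicate 3 had a marker mean of 14.01, close to day 0, and a Nox4 of 11.29, below every day 0 array. The mean of 6 endothelial markers lay between 9.20 and 9.78 at day 0, 9.68 and 10.23 at day 1, 8.83 and 9.87 at day 3, and 8.40 and 9.18 at day 7, and 0, 0 and 1 of the 6 fell on the 3 days. Of 5 fibroblast markers, 0, 1 and 3 rose, and their mean went from between 13.74 and 14.81 at day 0 to between 15.81 and 16.64 at day 7. Of 6 skeletal muscle markers, 5 rose at day 7 and 0 earlier, with means of 5.59 to 6.07 at day 0 and of 5.94, 7.11 and 6.80 on the day 7 arrays. At day 0, 4 of the 6 (Myh1, Myh2, Myh4 and Ckm) were under the negative control median on all 3 arrays. Among genes between 5 and 6 log2 units at day 0, 14.5% rose at day 7, beside 12.1% of all genes. Fibroblast and skeletal muscle means and Cybb had the same order on the day 7 arrays.

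Of 10 macrophage markers, 7 rose at day 1, 8 at day 3 and 9 at day 7, and 0 fell. Over all genes, 1.99%, 4.61% and 12.1% rose. Their mean lay between 7.34 and 7.71 at day 0, 8.92 and 9.61 at day 1, 8.95 and 9.59 at day 3, and 8.71 and 9.80 at day 7. At day 0, Fcgr1, a receptor for immunoglobulin G, was under the negative control median on all 3 arrays. On each infused day the arrays had the same order in Cybb and in the macrophage mean. The marker mean had no higher median at day 7 (9.36) than at day 1 (9.42) or day 3 (9.57), while the mean of Cybb was highest at day 7. Between day 7 and day 3, 1 of the 10 was called, beside 0.267% of all genes. This was the macrophage pore protein Mpeg1, which rose by 1.91 ± 0.26 (limma adjusted p = 0.0226). The other 9 differences ran from -1.90 ± 0.54 for the mannose receptor Mrc1 (adjusted p = 0.186) to 0.56 ± 0.31 for Fcgr1 (adjusted p = 0.496). Neutrophils carry the same oxidase, and 8 of their 10 markers read below the median negative control feature on each day 0 array, 8 at day 1, 6 at day 3 and 5 at day 7. Elane, Mpo and Ltf were under it on all 12 arrays. The neutrophil mean was 5.04 to 5.20 at day 0 and 5.42 to 5.74 at day 7, and 2 of 7 tested rose there, beside 12.1% of all genes. Both, S100a8 and Csf3r, were under the filter level on all day 0 arrays, so that they entered the test only through infused arrays, and under the negative control median on all 12. The 3 B cell and 5 T cell markers measured were under the negative control median on every array of every day.

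**Figure D3:**
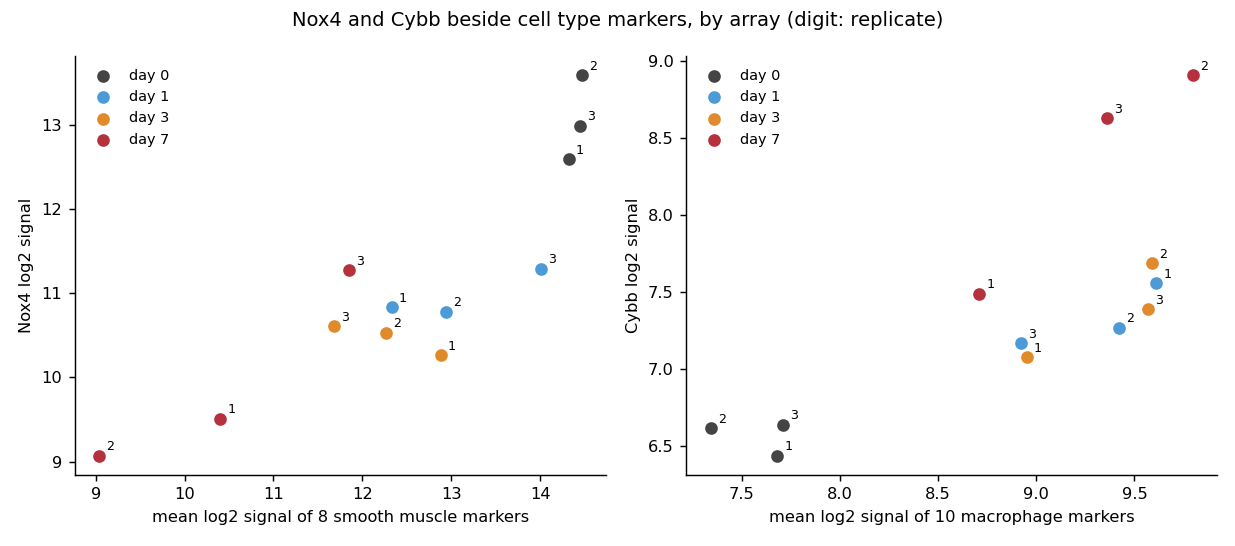
Left, Nox4 log2 signal (vertical) against the mean log2 signal of 8 smooth muscle markers (horizontal); right, Cybb log2 signal against the mean of 10 macrophage markers; each point is 1 of 12 arrays, coloured by day with its replicate number. Day 0 arrays sit at the top right on the left and at the bottom left on the right, and day 7 replicate 2 has the lowest Nox4 (9.07) and the highest Cybb (8.91).

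Adipocyte markers differed between the samples too. The mean of 7 brown adipocyte markers lay between 8.04 and 8.30 at day 0, 6.88 and 7.45 at day 1, 7.31 and 7.98 at day 3, and 6.72 and 8.15 at day 7. Of 6 tested, 1 rose and 1 fell at day 1 and at day 3, and 0 were called at day 7. The mean of 6 white adipocyte markers lay between 11.23 and 11.51 at day 0 and 10.13 and 11.72 at day 1. It was 10.55 to 10.96 at day 3 and 10.99 to 11.62 at day 7. Of these 6, 0 were called at days 1 and 3, and 1 rose at day 7. Over all genes, 3.62%, 11.8% and 25.2% were called on the 3 days. With the mean of the brown and white adipocyte markers as a covariate, limma gave Nox4 a difference of -2.09 at day 3 (adjusted p = 0.171), and Ncf1 one of 0.63 at day 1 (adjusted p = 0.451) and 1.03 at day 3 (adjusted p = 0.0526). Without the covariate these were -2.59, 0.69 and 1.08. Nox4, Cybb, Ncf1 and Ncf4 remained called at day 7. Adding the control-feature distance to the model gave Nox4 a difference of -2.04 at day 3 (limma adjusted p = 0.136) and -2.36 at day 7 (adjusted p = 0.133), and Ncf1 one of 0.88 at day 7 (adjusted p = 0.0611), while Cybb and Ncf4 remained called at day 7.

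Most other oxidase components were not above background. Of 13 listed, 11 were named in the table and 4 were tested. The other 7 of those 11 (Nox3, Duox1, Duox2, their maturation factors Duoxa1 and Duoxa2, the Nox1 activator Noxa1 and the proton channel Hvcn1) had signals below the median negative control feature on each of the 12 arrays. Cybc1 was not analysed here. Rac1, the GTPase that serves oxidases outside blood cells, fell by 0.75 ± 0.19 at day 7 (limma adjusted p = 0.0215) after -0.13 ± 0.19 at day 1 and -0.14 ± 0.19 at day 3, which did not pass. Poldip2, a protein that binds p22phox and raises Nox4 activity, fell by 0.35 ± 0.08 at day 3 (limma adjusted p = 0.026) and by 0.32 ± 0.08 at day 7 (adjusted p = 0.0209). Nrros, which holds back the phagocyte oxidase, and Noxo1, the Nox1 organiser, were not called on any day. Nrros differed by 0.18 ± 0.13 at day 7, and Noxo1, at 5.07 to 5.35, was below the median negative control feature on each array, like the 7 genes above. The median change of the 4 was -0.17 at day 7, beside 0.09 over all genes.

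The next list, the activator list, holds genes that act upstream of the phagocyte oxidase, with the inhibitor Arhgdib among them. Of 14 genes of this list tested, 6 rose and 0 fell at day 1, 9 rose and 1 fell at day 3, and 9 rose and 1 fell at day 7, with medians of 0.42, 0.56 and 0.40 log2 units. Over all genes, 1.99%, 4.61% and 12.1% rose, 1.63%, 7.14% and 13.2% fell, and the medians were 0.01, 0.08 and 0.09. On each day 0 array 9 of the 14 were above the negative control median, so the others started at background. The integrin chains Itgam and Itgb2, which form the complement receptor of phagocytes, rose by 1.83 ± 0.30 and 1.18 ± 0.23 at day 1, 1.90 ± 0.30 and 1.22 ± 0.23 at day 3, and 1.41 ± 0.30 and 1.08 ± 0.23 at day 7 (limma adjusted p = 0.00747 to 0.0274). Dock2, a Rac activator of leukocytes, rose by 0.84 ± 0.17, 0.82 ± 0.17 and 1.12 ± 0.17 on the 3 days. Tiam1, another Rac activator, rose by 0.94 ± 0.11 at day 1 and 0.75 ± 0.11 at day 3 but not at day 7 (0.31 ± 0.11, limma adjusted p = 0.0679), and its day 7 level was below that of day 1 by -0.63 (adjusted p = 0.0246). Arhgdib, the GTPase inhibitor of blood cells that holds Rac2, rose by 0.78 ± 0.16 at day 1 (limma adjusted p = 0.0318) and 0.79 ± 0.16 at day 3 (adjusted p = 0.0166), with 0.25 ± 0.16 at day 7 (adjusted p = 0.253). Pla2g4a, a phospholipase that releases arachidonate, was the gene of this list that fell, by 0.71 ± 0.19 at day 3 and 1.21 ± 0.19 at day 7 (limma adjusted p = 0.0395 and 0.0033).

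Among 14 genes tested for other sources and for removal of superoxide and peroxide, 2 fell and 0 rose at day 1, 3 fell and 1 rose at day 3, and 4 fell and 2 rose at day 7. Their medians were -0.21, -0.20 and -0.41 log2 units, beside 0.01, 0.08 and 0.09 over all genes. Over all genes, 1.63%, 7.14% and 13.2% fell and 1.99%, 4.61% and 12.1% rose. The mean of the 15 genes of this list named in the table lay between 8.58 and 8.71 at day 0. Genes between 8 and 10 log2 units at day 0 had median changes of -0.08, -0.22 and -0.33, and 3.85%, 17.2% and 30.4% of them fell. The list is thus near genes of like signal at days 3 and 7. Nqo1, a quinone reductase of the Nrf2 response, fell by 0.97 ± 0.13, 1.42 ± 0.13 and 1.17 ± 0.13 on the 3 days (limma adjusted p = 0.00102 to 0.00854). It was under the negative control median on all 9 infused arrays, so its infused level is not above background. Gpx4, the peroxidase of membrane lipids, fell by 0.66 ± 0.13, 0.76 ± 0.13 and 0.74 ± 0.13. Sod1, the cytosolic superoxide dismutase, fell by 1.12 ± 0.28 at day 3 (limma adjusted p = 0.0319). Hmox1, heme oxygenase, rose by 1.13 ± 0.20 at day 3 and 0.66 ± 0.20 at day 7 (limma adjusted p = 0.0107 and 0.0402). Xdh, xanthine dehydrogenase, which can also make superoxide as an oxidase, rose by 1.98 ± 0.59 at day 7 (limma adjusted p = 0.0385).

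**Figure D4:**
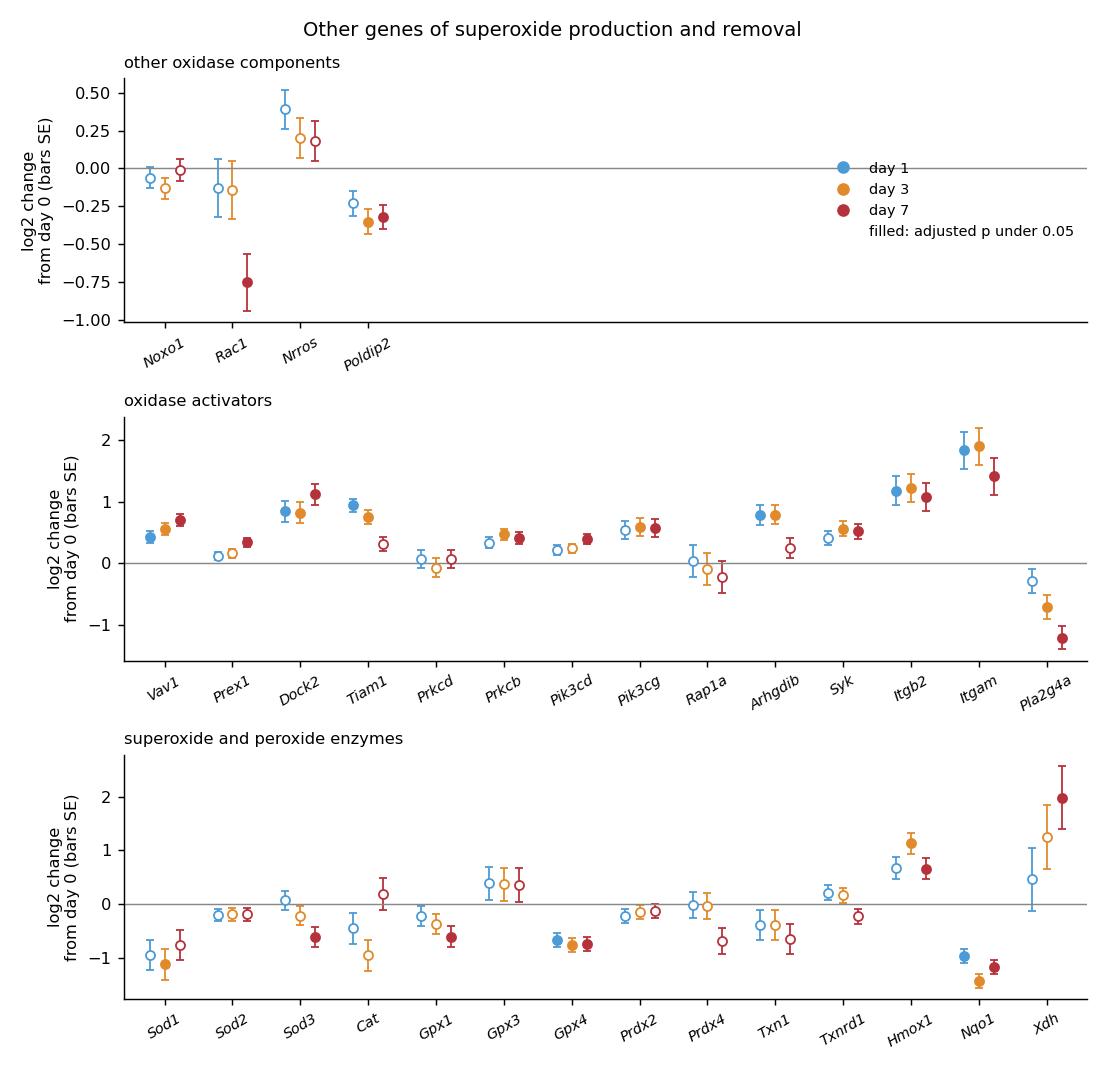
Log2 change from day 0 (vertical axis, limma estimate with SE, n = 3 arrays per group) of the tested genes of 3 lists at day 1, 3 and 7, with filled points for adjusted p under 0.05. Itgam and Itgb2 stand above 1 on each day, Pla2g4a and Rac1 go down to -1.21 and -0.75 at day 7, and Nqo1 is between -0.97 and -1.42.

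Over the 12 arrays, 2354 genes varied enough to be compared with Nox4 and Cybb by Pearson r, as a description. The 5 most like Nox4 were Gldn (r = 0.968), Ccdc3 (0.968), Slc44a2 (0.966), Mylk4 (0.965) and Nalcn (0.963), and after subtracting each day's mean their r with Nox4 was 0.790 to 0.832. For Nox4 and for Cybb the genes were picked by r over the same 12 arrays, so r within days is no separate check. Of the 5 most like Nox4, Ccdc3, a secreted protein, had a change of -5.13 at day 7 and Mylk4, a myosin light chain kinase family member, -4.00. The 5 most like Cybb were Ptprc (r = 0.981), the pan-leukocyte protein CD45, Apobec1 (0.973), Epsti1 (0.966), Clec4a3 (0.966), a myeloid lectin receptor, and Fndc1 (0.963), with 0.882 to 0.939 after subtracting each day's mean. Ptprc changed by 1.14 at day 1, 1.15 at day 3 and 2.20 at day 7, beside 0.77, 0.82 and 1.78 for Cybb. Among the members, the deviations from the day means of Ncf1 and Ncf4 had r = 0.884 and those of Cybb and Rac2 r = 0.783, the highest of all pairs. Those of Cyba and Ncf1 had r = 0.248, and those of Nox4 and Cybb r = 0.159. Nox1, not above background on any array, had r = -0.754 with Cybb and -0.6 with Rac2. Deviations within days are thus no sign that subunits moved together, and what they share was not tested.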

How the data were processed

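Total RNA of 12 mouse vessel samples, 4 groups of 3, was measured on Affymetrix arrays. The authors deposited log2 signals, 1 per transcript cluster and array. The submitters' processing notes name Affymetrix Expression Console; the version, background correction and normalization remain not given in the sources used here. Identifiers in the table are transcript clusters of another design than the mouse array in the labels, and the annotation of the table itself was taken. Of 72688 features, 65956 were transcript clusters: 31258 had 1 gene symbol after old symbols were updated, 1492 had several and 33206 had none. Values were used as deposited. A gene was its brightest cluster, and it stayed in the test if 3 or more of the 12 arrays were at or above 5.25, the 40th percentile over clusters. The tests used limma 3.58.1 (R 4.3.3) with all arrays in the fit, Benjamini-Hochberg adjusted p under 0.05 over 22066 genes for a call, and the code was tested on simulated data. With 3 arrays per group, their number limits the precision.

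The 7 genes, the lists and the tests were chosen with earlier results of these data known. All 7 were described in every comparison, all tested components of the oxidase list were named, and of the activator and superoxide lists the called genes with the largest changes, at most 4 per comparison. Single marker genes were named after their values were seen. Genes most like Nox4 or Cybb needed an SD of at least 0.5 and no predicted or small RNA symbol. Of the listed genes, Cybc1, Lyn, Prdx1, Prdx6, Pdgfra and Cfd had no cluster of their own and were not used here. Same-numbered arrays did not deviate together in general (r from -0.506 to 0.662, over 0.1 in 7 of 18 pairs), though they did in all 3 pairs of day 1 and day 7 (0.364 to 0.662), where a fit with the replicate number as a block called 0 members, as without it. Alternatives were other scalings, filters, variance models and covariates, a mean over clusters, the 6 arrays compared alone, and each array left out in turn.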

Additional observations from a re-analysis of the deposited data

How the results depend on the processing

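Cybb at day 7 passed under every alternative run, and Nox4 at day 7 under all but the control-feature covariate. Of the 6 members tested, 1 was called at day 1. That became 0 with centred arrays or the adipocyte covariate, and 2 with trend and robust estimation or with constant genes left out (an alternative added after seeing the data). A stricter filter at the 60th percentile, which Ncf4 did not pass, gave 3, with 917 of all genes called. At day 3, 4 called became 2 with quantile normalization or centred arrays, 1 with the control-feature covariate and 0 with the adipocyte covariate. At day 7, 5 became 3 with quantile normalization or centred arrays and 2 with the control-feature covariate. In the F test, 5 became 3 with quantile normalization or centred arrays, 2 with the adipocyte covariate and 1 with the control-feature covariate. Leaving out 1 array at a time gave 0 to 3 members at day 1, 1 to 6 at day 3, 4 to 6 at day 7, 1 to 6 in the F test, and 0 to 1 for day 7 against day 3 or day 1. The cause was not tested.

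Over all genes, 799 were called at day 1, against 480 with quantile normalization, 439 with centred arrays, 0 with the adipocyte covariate and 209 with only the 6 arrays compared. At day 3, 2593 became 464 (control-feature covariate), 99 (adipocyte covariate) and 4523 (6 arrays), and at day 7, 5570 became 771, 2003 and 2719. For day 7 against day 3, 59 became 131 with quantile normalization, 378 with the control-feature covariate and 1 with 6 arrays. For day 7 against day 1, 1056 became 1951 (quantile), 2247 (centred), 363 (control-feature), 2450 (adipocyte) and 2 (6 arrays). The F test's 3217 became 935 and 1573 with the control-feature and adipocyte covariates. Leaving out 1 array gave 101 to 1105 genes at day 1, 702 to 3497 at day 3, 2837 to 7471 at day 7, 0 to 1 for day 3 against day 1, 10 to 272 for day 7 against day 3, 43 to 3779 for day 7 against day 1 and 1008 to 4308 in the F test.

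Some small differences changed sign. With centred arrays Cyba was -0.02 at day 7 against day 0, Cybb -0.09, Ncf4 -0.13 and Rac2 -0.02 for day 3 against day 1, and Ncf1 -0.13 and Rac2 -0.11 for day 7 against day 1. With quantile normalization Ncf4 was -0.12 for day 3 against day 1 and Rac2 -0.07 for day 7 against day 1. With the adipocyte covariate Cyba was 0.01 for day 3 against day 1 and Rac2 0.02 for day 7 against day 3, where the control-feature covariate gave 0.05. Leaving out 1 array gave, for day 3 against day 1, -0.09 to 0.01 for Cyba, -0.09 to 0.21 for Cybb and -0.02 to 0.07 for Ncf4. It gave -0.11 to 0.01 for Cyba and -0.15 to 0.14 for Rac2 for day 7 against day 3, and -0.02 to 0.27 for Rac2 for day 7 against day 1.

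With the replicate number as a block, 1, 3 and 5 members were called at days 1, 3 and 7 and 4 in the F test, and 820, 2794 and 5781 genes; Cyba was the call lost at day 3 (adjusted p = 0.0715 in limma). Of the calls for day 7 against day 3, 42.4% were upward as deposited, 32.1% with quantile normalization and 29.9% with centred arrays, and for day 7 against day 1, 39.2%, 20.3% and 22.3%. The median change of all genes at day 7 was 0.09 as deposited, -0.10 with quantile normalization and -0.19 with centred arrays. Signal close to the negative control features limits Ncf4, Rac2 and Nox1 most.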
